A study of Mus musculus with 6 samples.

Results

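Notch target genes and the nuclear complex that switches them on were examined in RNA from mouse cerebral microvessels. The 10 genes were the targets *Hes1*, *Hes5*, *Hey1*, *Hey2*, *Heyl* and *Nrarp*, and *Rbpj*, *Maml1*, *Maml2* and *Maml3*, which encode the DNA-binding and Mastermind subunits of the complex. They were chosen by gene symbol and make up 10 of the 23183 symbols listed in each library. RNA-seq was performed on 3 WT mice (TEK-cre, Crif1+/+) and 3 KO mice (TEK-cre, Crif1 flox/flox) on the C57BL/6 background, with 1 library per mouse. Both groups therefore carried the Cre transgene, which is driven by Tek, a receptor gene of endothelial cells that some blood cells also express, and the groups differed in the floxed *Crif1* (*Gadd45gip1*) allele, a gene needed for mitochondrial oxidative phosphorylation. The ages of the sequenced mice were not given in the sources used here. Microvessels were isolated from whole homogenized brain, so the RNA also came from pericytes, smooth muscle cells, astrocytes and other cells that stay attached to the vessels.

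Notch receptors are cleaved when a ligand on a neighbouring cell binds them, and the released intracellular domain moves to the nucleus. There it joins RBPJ, which otherwise sits on DNA with corepressors, and a Mastermind-like protein, which brings in histone acetyltransferases. *Hes* and *Hey* genes, the classic targets, encode basic helix-loop-helix proteins that repress transcription, and *Nrarp* encodes an ankyrin-repeat protein that limits the signal. In vessels the pathway is known for arterial identity, for the restraint of sprouting and for the maturation of mural cells.

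The DNA stretches before the start sites of 4 of the genes are shown because they hold the letters by which RBPJ and HES or HEY proteins are known to bind, and because these are the 3 target genes with an entry in the promoter table and the complex gene with the lowest p in the comparison of KO with WT mice. They were taken from the RefSeq promoters of GRCm38.p6, the assembly also named mm10. That table matched 7 of the 10 genes with 9 windows of 300 bases, from 250 bases before to 50 bases after each start. *Hes1*, *Hey1* and *Heyl* had no entry. Each stretch reads 5′ to 3′ on the strand of its gene, with matches to the searched motifs on either strand in capitals. Distances are counted from the RefSeq start. Where GENCODE M21 places an exon of the gene earlier, the stretch ends before that exon. The stretches of *Hey2* and *Maml3* therefore end 19 and 71 bases before the RefSeq start.
Hes5 (chr4:154960673-154960922, plus strand): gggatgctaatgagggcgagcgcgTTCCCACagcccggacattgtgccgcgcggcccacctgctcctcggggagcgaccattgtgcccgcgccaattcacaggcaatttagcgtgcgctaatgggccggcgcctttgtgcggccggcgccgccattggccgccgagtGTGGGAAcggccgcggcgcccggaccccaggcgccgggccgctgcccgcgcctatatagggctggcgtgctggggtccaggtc
Hey2 (chr10:30842802-30843033, minus strand): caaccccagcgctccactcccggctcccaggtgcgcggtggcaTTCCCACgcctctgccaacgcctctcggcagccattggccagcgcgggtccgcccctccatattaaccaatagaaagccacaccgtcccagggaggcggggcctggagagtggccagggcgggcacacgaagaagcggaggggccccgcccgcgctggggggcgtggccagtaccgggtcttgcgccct
Nrarp (chr2:25180508-25180757, plus strand): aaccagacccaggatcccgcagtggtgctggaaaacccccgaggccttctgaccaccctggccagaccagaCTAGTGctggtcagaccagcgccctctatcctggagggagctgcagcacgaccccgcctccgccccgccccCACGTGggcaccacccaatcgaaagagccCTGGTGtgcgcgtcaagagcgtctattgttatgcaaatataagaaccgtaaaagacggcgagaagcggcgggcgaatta
Maml3 (chr3:52105077-52105256, minus strand): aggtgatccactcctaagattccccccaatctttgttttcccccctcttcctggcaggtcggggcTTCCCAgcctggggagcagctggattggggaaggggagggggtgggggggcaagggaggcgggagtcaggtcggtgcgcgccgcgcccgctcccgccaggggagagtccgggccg

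The motifs searched on both strands were the RBPJ core TGGGAA, its longer form GTGGGAA, which contains the core, the N box CACNAG and the class B E box CACGTG. The RBPJ core was found in the windows of *Hes5*, *Hey2*, *Rbpj*, *Maml2* and *Maml3*, 5 of the 7 genes and 6 of their 9 windows, against 25.6% of 32851 promoter windows of the same length. Its longer form was found in *Hes5* and *Hey2*, 2 of the 9 windows, against 6.38% of all windows. Both genes held it on each strand, an arrangement present in 33 windows (0.1005%) that was searched for after the matches had been seen. The copies began 226 bases (minus strand) and 83 bases (plus strand) before the start of *Hes5*. For *Hey2* they began 207 bases before the start (minus strand) and 4 bases before it (plus strand), and the latter spans the start site and lies outside the stretch printed above. *Nrarp* held CACGTG 108 bases before its start, a motif present in 7.15% of all windows, and CACNAG 179 and 79 bases before it. *Maml2* was the other gene with CACNAG, which 42.5% of all windows held, and *Maml1* held none of the motifs. These matches describe the letters only.

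**Figure D1:**
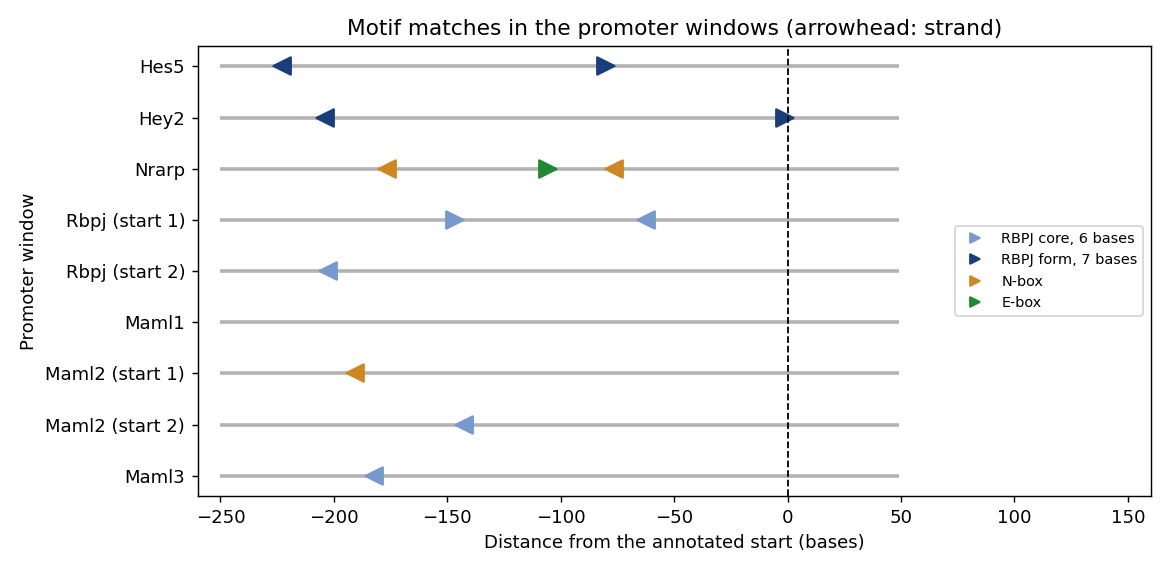
Positions of motif matches (markers) in the 9 RefSeq promoter windows (lines) of 7 genes, in bases from the start site, drawn to scale along the gene's own strand. *Hes5* and *Hey2* each have GTGGGAA on both strands, *Nrarp* has the CACGTG match, and *Maml1* has no match.

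FPKM, the number of fragments per transcript length and library size, was compared between KO and WT mice as log2(FPKM + 1) with limma. The fit covered the 14247 genes whose mean reached 1 FPKM. The depth estimated from the spacing of low FPKM values was 6400000 to 11700000 fragments per library. For a 1 kb transcript, a floor of 3 fragments equals 0.256 to 0.470 FPKM, and this floor accounts for counting error alone. *Gadd45gip1* measured 18.8, 15.3 and 16.5 FPKM in WT mice and 10.8, 7.54 and 10.4 FPKM in KO mice, so every KO library lay below every WT library (log2 fold change −0.77, SE 0.22, unadjusted limma p = 0.00534, adjusted p = 0.841, exact permutation p = 0.1). No gene passed an adjusted p of 0.05 (0.0% of those tested), the smallest adjusted p was 0.841, and 838 genes had an unadjusted limma p under 0.05. With 3 mice against 3, the exact permutation test cannot give a p below 0.1. Spearman correlations across 13726 genes between a library's deviation from the mean and GC content ran from 0.0835 to 0.313 in WT mice and from −0.247 to −0.0279 in KO mice, so they were positive in every WT library and negative in every KO library.

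Endothelial markers were well detected, with summed levels of 879 to 1217 FPKM over 7 genes in WT libraries and 744 to 1062 FPKM in KO libraries. Within this list *Cdh5*, the gene of the endothelial junction protein VE-cadherin, measured 86.7, 92.4 and 91.3 FPKM in WT mice and 50.8, 42.5 and 38.1 FPKM in KO mice, without overlap (log2 fold change −1.03, unadjusted limma p = 0.000303, adjusted p = 0.841, exact permutation p = 0.1). It had the lowest p of all tested genes, and the part of endothelial content in the values below was not tested. Summed pericyte markers also overlapped between the groups (807 to 1311 against 851 to 974 FPKM). So did the smooth muscle sums (225 to 561 against 257 to 754 FPKM). Within the pericyte list *Pdgfrb* was lower in every KO library (36.9 to 45.6 against 30.8 to 33.6 FPKM). *Anpep* was too (24.0 to 33.2 against 19.1 to 23.0 FPKM), and the other pericyte genes overlapped. The astrocyte sum over 7 genes was 610 to 724 FPKM in WT libraries and 477 to 518 FPKM in KO libraries, and the microglia sum over 5 genes was 94.1 to 106 against 77.1 to 90.3 FPKM, so both were lower in every KO library. Neuronal and oligodendrocyte sums overlapped (149 to 371 against 139 to 323 FPKM, and 265 to 382 against 143 to 337 FPKM), as did those of red cells (1765 to 2425 against 1209 to 2341 FPKM). On the log2 scale, lower KO means were found for 5 of 7 endothelial, 6 of 7 pericyte, 0 of 4 smooth muscle, 6 of 7 astrocyte, 5 of 5 neuronal, 4 of 5 oligodendrocyte, 4 of 5 microglia and 3 of 4 red cell markers. Among these marker lists, that of red cells alone had a gene at 0 in a library. In such bulk RNA, fewer cells of a type and less RNA per cell cannot be told apart.

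All 10 genes passed the filter on low values, and none passed the test for a difference between KO and WT mice. By limma, 0 of 10 had an unadjusted p under 0.05, against 5.88% of all genes tested, and 0 passed after adjustment, as was so for all genes (0.0%). On the log2 scale the KO mean exceeded the WT mean for 6 genes and was below it for 4, with a median log2 fold change of 0.02. Over all genes, 50.8% lay below 0 and the median was −0.01. The WT and KO values of 9 of the 10 genes overlapped, and *Maml3* was the exception, against 11.1% of all genes whose groups did not overlap (5.7% with KO below WT and 5.37% with KO above WT).

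**Figure D2:**
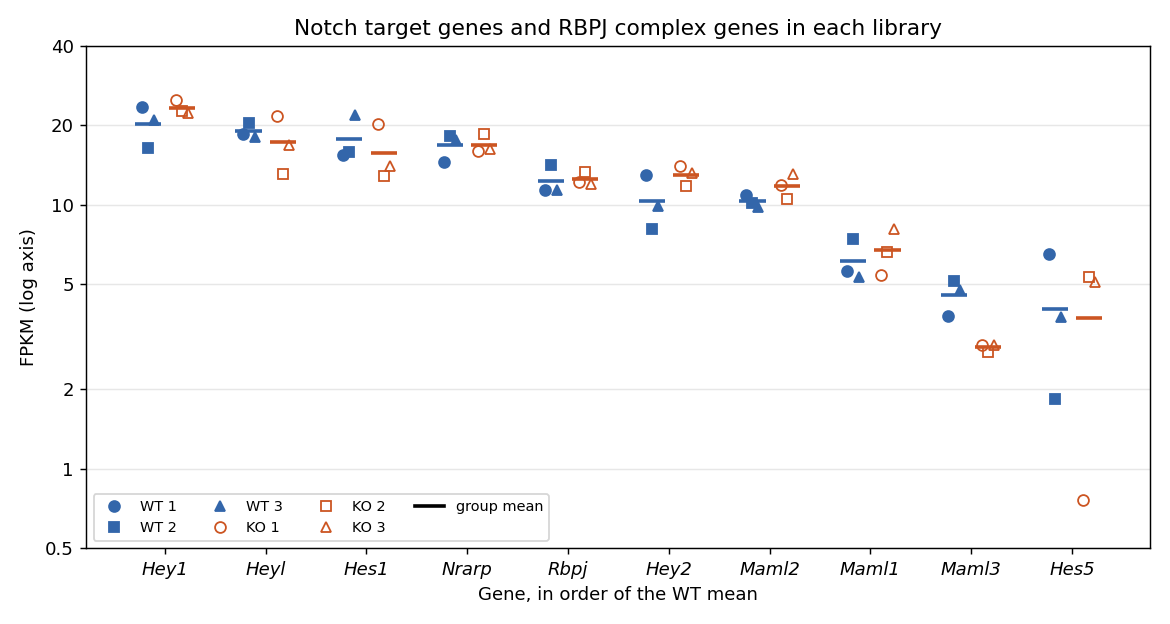
FPKM of the 10 genes in each of the 3 WT and 3 KO libraries (points) with the group mean (horizontal lines). The groups overlap for 9 genes, and the 3 KO values of *Maml3* (2.77 to 2.95 FPKM) lie below the 3 WT values (3.79 to 5.16 FPKM).

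FPKM is a level per transcript length, so it was also compared between genes. In WT microvessels *Hey1* had the highest mean (20.3 ± 3.63 FPKM, SD, n = 3), followed by *Heyl*, *Hes1* and *Nrarp*, and the ranges of neighbours in this order overlapped. The next gene, *Rbpj*, lay below the range of *Nrarp*, and *Hey2* and *Maml2*, with overlapping ranges, had means of 10.3 FPKM each. *Maml1* lay apart from *Maml2* above it and from *Maml3* below it, and the ranges of *Maml3* and *Hes5*, the lowest gene, overlapped. In KO microvessels *Hey1* again had the highest mean (23.3 ± 1.41 FPKM) and lay apart from the next gene, and *Maml3* (2.88 ± 0.101 FPKM) replaced *Hes5* as the lowest, with ranges that overlapped.

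*Hey1* and *Hey2* encode repressors made in arterial endothelium and were the target genes with the highest log2 fold changes, although neither passed the test. *Hey1* (chr3:8663359-8667256, minus strand, 5 exons in GENCODE M21, GRCm38) measured 23.6, 16.4 and 20.9 FPKM in WT mice and 24.9, 22.7 and 22.4 FPKM in KO mice. WT 2 was the lowest of the 6 libraries and KO 1 the highest, and WT 1 lay among the KO values. KO and WT mice differed by a log2 fold change of 0.21 (SE 0.20, 95% interval −0.25 to 0.66, limma adjusted p = 0.919, exact permutation p = 0.3), and by 0.07 without WT 2 and 0.32 without WT 1. *Hey2* (chr10:30832359-30842801, minus strand, 5 exons), whose promoter stretch with GTGGGAA is printed above, measured 13.02, 8.07 and 9.86 FPKM in WT mice and 14.1, 11.8 and 13.2 FPKM in KO mice. Again WT 2 was lowest and KO 1 highest, with WT 1 inside the range of the KO libraries. The log2 fold change was 0.33 (SE 0.23, 95% interval −0.18 to 0.84, limma adjusted p = 0.853, exact permutation p = 0.2), and it was 0.18 without WT 2 and 0.50 without WT 1. *Hey1* stood at 1.99 ± 0.159 times the level of *Hey2* in WT mice and 1.79 ± 0.121 times in KO mice (SD, n = 3), and these ratios overlapped between the groups.

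*Heyl*, the family member best known from pericytes and vascular smooth muscle (chr4:123233556-123249875, plus strand, 5 exons), measured 18.5, 20.3 and 18.1 FPKM in WT mice and 21.8, 13.1 and 16.9 FPKM in KO mice. The WT libraries lay close together, and the KO libraries spanned them, with KO 1 above and KO 2 and KO 3 below all 3 WT values. The coefficient of variation reached 6.26% among WT libraries and 25.3% among KO libraries, and the log2 fold change was −0.16 (SE 0.22, 95% interval −0.66 to 0.34, limma adjusted p = 0.948, exact permutation p = 0.6). Its sign rested on KO 2, since without this library the log2 fold change was 0.02.

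*Hes1*, which encodes a repressor made in many cell types in answer to Notch (chr16:30064384-30067796, plus strand, 4 exons), measured 15.4, 15.8 and 21.9 FPKM in WT mice and 20.2, 12.9 and 14.0 FPKM in KO mice. WT 3 and KO 1 stood above the other 4 libraries, 1 in each group. The fitted log2 difference, KO minus WT, was −0.17 (SE 0.24, 95% interval −0.70 to 0.36, limma adjusted p = 0.946, exact permutation p = 0.5), and it was −0.02 without WT 3 and −0.36 without KO 1. *Hes5*, a target best known from neural progenitors and glia (chr4:154960923-154962371, plus strand, 3 exons), measured 6.49, 1.84 and 3.76 FPKM in WT mice and 0.762, 5.31 and 5.12 FPKM in KO mice. It was the most variable of the 10 genes, with coefficients of variation of 57.9% and 69.0%, and its lowest values came from 1 library of each group, WT 2 and KO 1. Fragment numbers were estimated from depth and the longest GENCODE transcript of each gene, which may not be the annotation behind the FPKM values. On this estimate the FPKM of *Hes5* corresponded to 94, 21 and 54 fragments in WT mice and 8, 43 and 76 fragments in KO mice. These were the smallest numbers among the 10 genes. The log2 fold change was −0.19 (SE 0.52, 95% interval −1.36 to 0.98, limma adjusted p = 0.971, exact permutation p = 1), an interval that includes large changes in both directions. Without KO 1 it was 0.41 and without WT 1 it was 0.15, so its sign rested on single libraries.

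*Nrarp* (chr2:25180758-25183339, plus strand, 1 exon) measured 14.5, 18.3 and 17.6 FPKM in WT mice and 16.0, 18.5 and 16.3 FPKM in KO mice. Its means were 16.8 ± 1.99 and 16.9 ± 1.36 FPKM, the closest pair among the target genes. The log2 fold change was 0.01 with a 95% interval from −0.43 to 0.45 (SE 0.20, limma adjusted p = 0.994, exact permutation p = 0.9), and its sign changed without WT 1 (−0.08) or without KO 2 (−0.05). Summed over the 6 target genes, the level was 91.6, 80.7 and 92.1 FPKM in WT mice and 97.7, 84.2 and 88.0 FPKM in KO mice, and the groups overlapped. Among the targets, KO 1 had the highest level of *Hey1*, *Hey2* and *Heyl* of any library and the lowest of *Hes5*, whereas KO 2 had the lowest level of *Hes1* and *Heyl* and the highest of *Nrarp*. The targets thus differed in which library was high or low. *Hes5*, *Nrarp* and *Maml1* overlap genes annotated on the opposite strand (Gm20421, Gm38287 and Gm26542). Whether the authors counted by strand was not given in the sources used here, so reads of these pairs may be mixed. *Maml2* overlaps Gm22643 on its own strand, where counting by strand would not separate the reads.

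**Figure D3:**
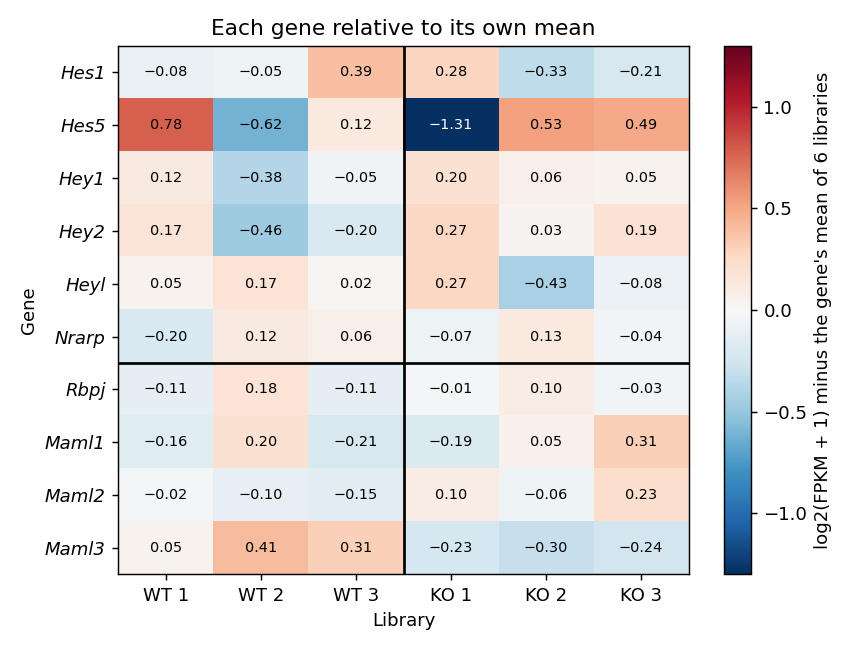
Level of each of the 10 genes in each library as log2(FPKM + 1) minus the gene's mean over the 6 libraries. *Hes5* spans the widest range, from −1.31 in KO 1 to 0.78 in WT 1, and *Maml3* is the gene whose 3 KO libraries all lie below its 3 WT libraries.

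*Rbpj*, the DNA-binding subunit of the complex (chr5:53466152-53657362, plus strand, 13 exons in its longest transcript), measured 11.4, 14.1 and 11.4 FPKM in WT mice and 12.2, 13.3 and 12.04 FPKM in KO mice. All 3 KO values lay within the range of the WT values. The log2 fold change was 0.03 with a 95% interval from −0.42 to 0.48 (SE 0.20, limma adjusted p = 0.991, exact permutation p = 0.8), and it was −0.02 without WT 1, −0.02 without WT 3 and −0.01 without KO 2.

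The Mastermind-like coactivators are related partners of RBPJ in the complex, and their levels differed among themselves. *Maml1* (chr11:50255634-50292311, minus strand, 5 exons) measured 5.60, 7.43 and 5.34 FPKM in WT mice and 5.44, 6.63 and 8.11 FPKM in KO mice. The ranges overlapped over most of their width (log2 fold change 0.11, SE 0.25, 95% interval −0.43 to 0.66, limma adjusted p = 0.963, exact permutation p = 0.6), and without KO 3 the log2 fold change was −0.01. *Maml2* (chr9:13297957-13709388, plus strand, 5 exons) measured 10.9, 10.2 and 9.85 FPKM in WT mice and 11.8, 10.6 and 13.1 FPKM in KO mice. KO 2 lay below WT 1, and KO 1 and KO 3 lay above all WT values (log2 fold change 0.18, SE 0.20, 95% interval −0.27 to 0.63, limma adjusted p = 0.929, exact permutation p = 0.2).

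*Maml3* (chr3:51685907-52105076, minus strand, 5 exons), whose promoter stretch holds a TGGGAA match 185 bases before the RefSeq start, measured 3.79, 5.16 and 4.76 FPKM in WT mice and 2.95, 2.77 and 2.93 FPKM in KO mice. Every KO library lay below every WT library, the KO libraries were close together (coefficient of variation 3.504%, against 15.4% in WT mice), and the ratio of the means was 0.631. The log2 fold change was −0.51 (SE 0.26, 95% interval −1.08 to 0.06), and it did not pass the test (unadjusted limma p = 0.0727, adjusted p = 0.841, exact permutation p = 0.1, the smallest this design allows). By the same estimate as for *Hes5*, its FPKM corresponded to 356, 376 and 449 fragments in WT mice and 193, 146 and 284 in KO mice. With each library corrected for GC content the log2 fold change was −0.47.

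The share of *Maml3* was 18.7%, 22.7% and 23.8% of the summed FPKM of the 3 *Maml* genes in WT mice and 14.6%, 13.9% and 12.1% in KO mice. This share was lower in every KO library. The sum itself was 20.3, 22.8 and 19.96 FPKM in WT mice and 20.2, 19.97 and 24.1 FPKM in KO mice, so the totals overlapped between the groups. Astrocyte and microglia marker sums were likewise lower in every KO library, as given above, and their part in the *Maml3* values was not tested.

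**Figure D4:**
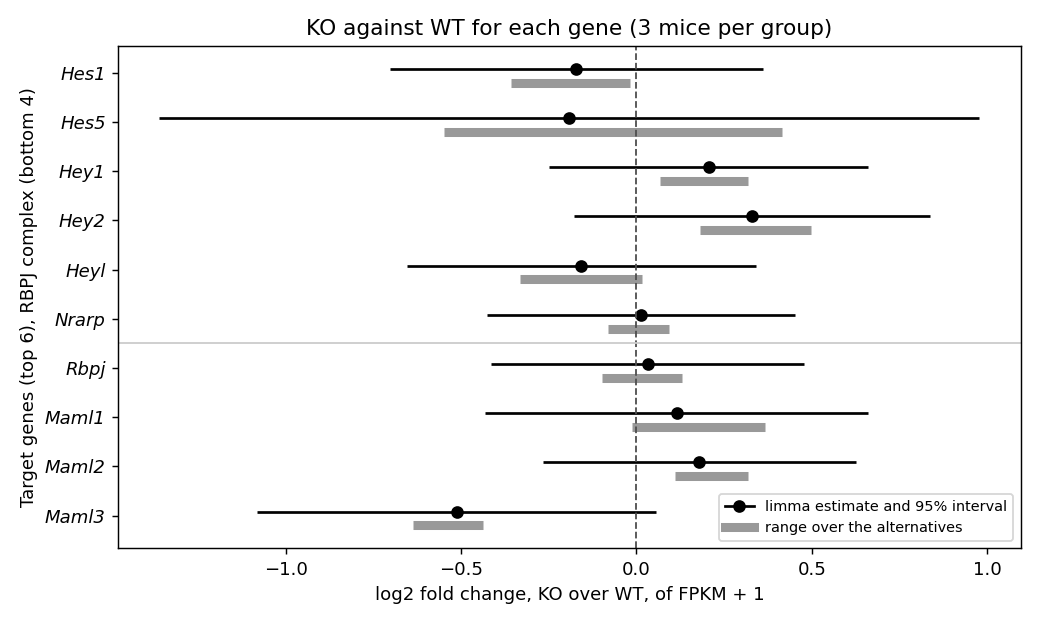
Log2 fold change of log2(FPKM + 1), KO over WT, for each of the 10 genes (points) with its 95% interval from limma (bars). Every interval includes 0, the widest belongs to *Hes5* (−1.36 to 0.98), and that of *Maml3* runs from −1.08 to 0.06.

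The tested genes whose profiles over the 6 libraries lay closest to *Hey1*, the target of the highest mean level, were *Tank*, *Rbm43* and *Mapk1ip1l*. Their root mean square differences from *Hey1* in centred log2(FPKM + 1) were 0.0412, 0.0504 and 0.0579, against a median of 0.357 over the other 14246 genes. For *Rbpj*, the complex gene of the highest mean level, the closest were 2210018M11Rik, *Nfx1* and *Gpatch1* (0.0451, 0.0459 and 0.0466, median over all others 0.326). These are descriptions over 6 libraries that share depth and base composition effects.

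Of 66 further genes of the Notch pathway, 61 were tested, and 26 had a higher and 35 a lower mean log2 level in KO mice, with a median log2 fold change of −0.06. By limma, 1 had an unadjusted p under 0.05 and a higher level in KO mice, against 2.77% of all genes, and 4 had a lower level, against 3.11%. None passed after adjustment. With each library corrected for GC content, which differed between the groups, only *Ccnc* among the 61 had an unadjusted p under 0.05, and none of the 5 genes did. Their log2 fold changes kept their direction, at −0.37 for *Notch1*, −0.39 for *Dtx1*, −0.50 for *Numbl*, −0.40 for *Tle3* and 0.40 for *Cir1*. The call of *Ccnc* was 1.64% of the 61, against 4.55% of all 13726 genes tested with that correction.

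In the lists that follow, higher and lower refer to KO against WT means of log2(FPKM + 1). Upstream of the complex, all 4 receptor genes had lower means in KO mice, with a summed level of 64.6 to 76.0 FPKM in WT libraries and 55.0 to 59.8 FPKM in KO libraries. Astrocyte and microglia marker sums and the pericyte genes *Pdgfrb* and *Anpep*, given above, were also lower in every KO library. Their part in the receptor values was not tested. *Notch1*, the receptor central to arterial endothelium, measured 15.3, 18.1 and 14.9 FPKM in WT mice and 9.39, 12.9 and 11.1 FPKM in KO mice, without overlap. Its log2 fold change was −0.50 (SE 0.21, unadjusted limma p = 0.0378, adjusted p = 0.841, exact permutation p = 0.1). Ligand genes were split, with 2 of the 4 tested higher and 2 lower. *Jag1*, a ligand of endothelium and smooth muscle, had means of 9.30 ± 2.19 and 11.1 ± 2.85 FPKM (limma adjusted p = 0.929, exact permutation p = 0.5). Among the 14 genes of receptor processing and glycosylation, 6 were higher and 8 lower. *Aph1c*, a gamma-secretase subunit gene, had the lowest p (log2 fold change 0.46, limma adjusted p = 0.873, exact permutation p = 0.2). With 1 library left out, its log2 fold change ran from 0.26 to 0.67.

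Among 13 RBPJ corepressor genes the mean of log2(FPKM + 1) was higher in KO mice for 8 and lower for 5. Their summed FPKM was 393 to 399 FPKM in WT libraries and 414 to 438 FPKM in KO libraries. *Cir1*, which encodes a corepressor that binds RBPJ, measured 16.96, 19.7 and 24.98 FPKM in WT mice and 35.6, 29.3 and 25.5 FPKM in KO mice, with KO 3 just above WT 3 (log2 fold change 0.54, unadjusted limma p = 0.0353, adjusted p = 0.841, exact permutation p = 0.1). The 4 genes of coactivators brought in by the complex had 1 higher and 3 lower means, and *Kat2a*, a histone acetyltransferase gene, had the lowest p (log2 fold change −0.34, limma adjusted p = 0.848, exact permutation p = 0.2). For *Kat2a* the log2 fold change ran from −0.45 to −0.20 with 1 library left out. Of the 4 Groucho corepressor genes, 2 were higher and 2 lower. *Tle3* measured 17.4, 22.0 and 17.3 FPKM in WT mice and 13.8, 13.2 and 13.2 FPKM in KO mice, without overlap (log2 fold change −0.46, unadjusted limma p = 0.0406, adjusted p = 0.841, exact permutation p = 0.1).

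Genes that act on the intracellular domain or the receptor after signalling had 3 higher and 8 lower means of 11. *Dtx1*, an E3 ligase gene that is itself induced by Notch, measured 16.9, 18.5 and 23.1 FPKM in WT mice and 13.05, 13.8 and 10.5 FPKM in KO mice, without overlap (log2 fold change −0.60, SE 0.21, unadjusted limma p = 0.0174, adjusted p = 0.841, exact permutation p = 0.1). *Numbl*, a relative of the Notch inhibitor Numb, had means of 19.8 ± 4.05 and 12.9 ± 2.47 FPKM with overlap (log2 fold change −0.58, unadjusted limma p = 0.0317, adjusted p = 0.841, exact permutation p = 0.2). Of the other *Hes* and *Hey* family genes only *Hes6* passed the filter (17.7 ± 5.40 and 17.3 ± 7.33 FPKM), and *Hes2*, *Hes3*, *Hes7* and *Helt* lay below it. Of 6 further targets of the pathway, 4 were higher and 2 lower. *Ccnd1*, the cyclin D1 gene, had the lowest p among them (39.8 ± 4.66 and 48.5 ± 8.13 FPKM, limma adjusted p = 0.877, exact permutation p = 0.2). The number of the 61 genes with an unadjusted p under 0.05 depended on single libraries, as did the share of all genes. It was 2 without WT 1 (3.28%, against 4.65% of all genes), 1 without WT 2 (1.64% against 3.16%), 1 without WT 3 (1.64% against 4.9%), 1 without KO 1 (1.64% against 3.58%), 9 without KO 2 (14.8% against 13.1%) and 3 without KO 3 (4.92% against 6.97%).

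**Figure D5:**
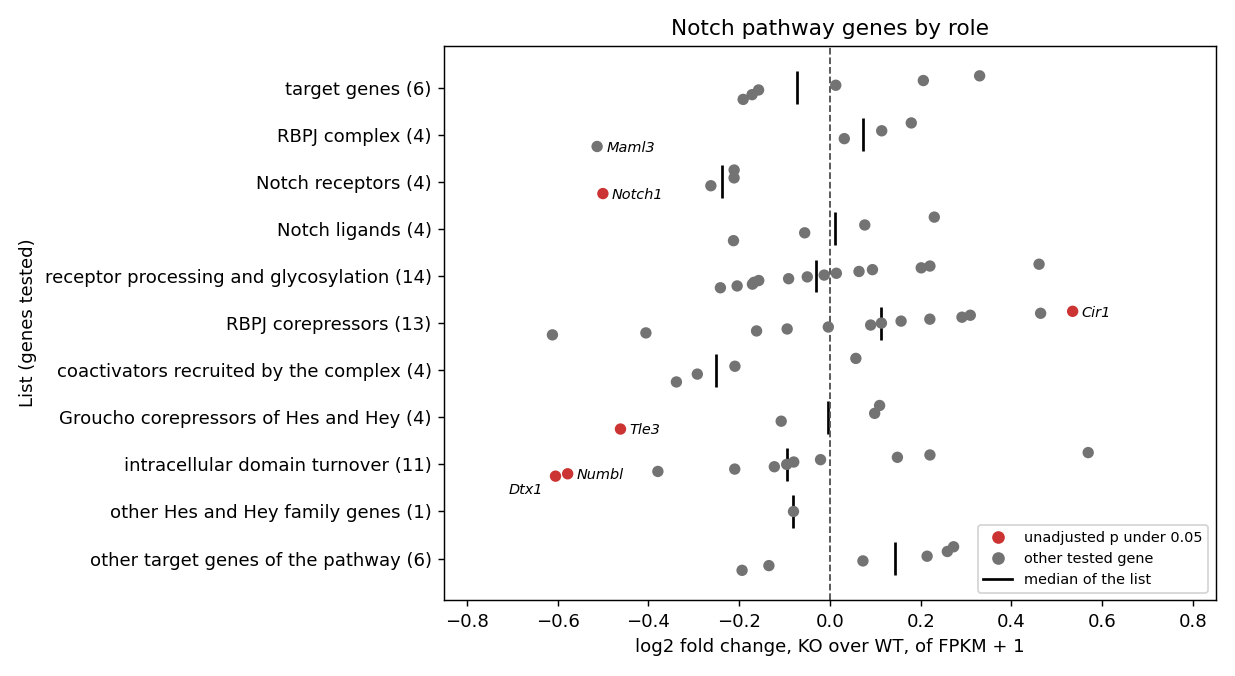
Log2 fold change, KO over WT, of log2(FPKM + 1) for the tested genes of each list (points, red for an unadjusted limma p under 0.05), with the list's median (black bar). All 4 receptors lie below 0, the 6 target genes lie on both sides of 0 between −0.19 and 0.33, and *Maml3* is the lowest of the 4 RBPJ complex genes.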

How the data were processed

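RNA was extracted with TRIzol from brain microvessels of 3 WT and 3 KO mice, and directional libraries were sequenced as paired ends. The authors trimmed the reads, mapped them with TopHat to mm10 (per the submitters' processing notes) and deposited FPKM values for 23183 gene symbols in each library. The tool and annotation behind the FPKM values were not given in the sources used here. Libraries were grouped by genotype, and KO was compared with WT on log2(FPKM + 1) with limma 3.58.1 (trended variance, no added scaling) in R 4.3.3 for the 14247 genes whose mean reached 1 FPKM. The Benjamini-Hochberg adjustment covered all tested genes, and exact two-sided permutation tests were run per gene. The fit was tested on simulated data.

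The 10 genes and all lists were chosen with earlier results of these data known. Of each pathway list, the genes with an unadjusted p under 0.05, or else the gene with the lowest p, were named, as were the 3 genes closest in profile to the complex or target gene of the highest mean. Positions came from GENCODE M21 (GRCm38). Depth was estimated from values under 0.3 FPKM and 4518 genes with 1 transcript, leaving out 1 of 15 library pairs.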

Additional observations from a re-analysis of the deposited data

How the results depend on the processing

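No gene of the 10 passed after adjustment under any alternative run. *Maml3* kept a lower level in KO mice in each of its 16 alternatives (log2 fold change −0.64 to −0.44, adjusted p 0.478 to 1), and it had an unadjusted p under 0.05 with no filter (0.0300) and without the trended variance, 1 of 10 genes each, against 5.12% and 5.58% of all genes. *Hes1*, *Hey1*, *Hey2* and *Maml2* also kept their direction, although their size depended on single libraries. With a filter at 5 FPKM, where *Hes5* and *Maml3* were not tested, 2 of 8 genes were lower in KO mice and 0 had groups without overlap (11.6% of all genes), and with median scaling 2 genes had none (11.1% of all genes).

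Leaving out 1 library gave 1 to 4 of the 10 genes without overlap (16.9% to 30.7% of all genes, since fewer samples overlap less often), 450 (without WT 2) to 1871 (without KO 2) genes with an unadjusted p under 0.05 (3.16% to 13.1%), and 1 to 9 of 61 pathway genes (1.64% to 14.8%). The lowest and highest log2 fold changes were −0.36 and −0.018 for *Hes1*, 0.068 and 0.32 for *Hey1*, 0.18 and 0.50 for *Hey2*, 0.11 and 0.25 for *Maml2*, −0.55 and 0.41 for *Hes5*, −0.33 and 0.016 for *Heyl*, −0.082 and 0.074 for *Nrarp*, −0.017 and 0.13 for *Rbpj*, −0.012 and 0.24 for *Maml1* and −0.35 and 0.31 for *Hes6*. With GC correction *Hes5* (0.021), *Rbpj* (−0.10) and *Hes6* (0.12) changed sign, and 1 pathway gene (1.64%) had an unadjusted p under 0.05, against 4.55% of all genes. With length correction *Nrarp* changed sign (−0.00026). Pathway genes with an unadjusted p under 0.05 numbered 8 (13.1%) with no filter, against 5.12% of all genes, and 2 (3.28%) without the trended variance, against 5.58%. The cause was not tested.

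Whether same-numbered WT and KO mice shared a litter or batch was not given in the sources used here. Deviations of same-numbered libraries correlated at 0.0375, 0.0267 and 0.0016 across genes, and not every library correlated best with its own number. These correlations cannot show whether the mice were paired. With the number as a block, *Maml3* had an unadjusted limma p of 0.125, 871 genes in all (6.11%) and 3 pathway genes (4.92%) had one under 0.05, and 0 of the 10 genes did.

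KO 3 alone against WT was chosen after seeing the data, because the columns of KO 1 and KO 2 are headed in another style and their values showed the steepest trends on transcript length (Spearman −0.296 and 0.289, against −0.139 in KO 3). Across genes, KO 3 correlated with the WT libraries at 0.932 to 0.944 and KO 1 and KO 2 at 0.912 to 0.921. This alternative assumes that the lone library varies like the WT group. It gave 6 of the 10 genes without overlap, against 57.2% of all genes, 1399 genes (9.82%) and 5 pathway genes (8.2%) with an unadjusted p under 0.05, and 0.39 for *Hes5*, −0.033 for *Nrarp*, −0.019 for *Rbpj* and 0.37 for *Hes6*. By estimated fragments, *Hes5* was the gene of the 10 with the lowest depth.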

Other observations

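Relatives of the complex genes were looked at after their values had been seen. *Mamld1*, a gene named for its Mastermind-like domain, measured 3.66, 4.42 and 4.57 FPKM in WT mice and 4.68, 8.92 and 6.87 FPKM in KO mice, so each KO library lay above each WT library. Its log2 fold change was 0.55 (SE 0.27, 95% interval −0.05 to 1.16), and it did not pass the test (unadjusted limma p = 0.0690, adjusted p = 0.841, exact permutation p = 0.1). This direction was opposite to that of *Maml3*, and the difference between the genes was not tested. *Rbpjl*, the paralog of *Rbpj* known from pancreatic acinar cells, was listed at 0.678, 0.691 and 0.0355 FPKM in WT mice and at 0 in all 3 KO mice. It lay below the filter on low values, so the limma comparison reported here did not include it. At such low values no difference between the groups was read from it.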
